A study of Mus musculus with 8 samples.

Results

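The genes described here are 10 genes of macrophages that enter fatty liver or take up lipid there: Trem2, Gpnmb, Spp1, Cd9, Cd63, Lgals3, Itgax and Mmp12, known from lipid-associated macrophages, and Ccr2 and Ly6c2, known from recruited monocytes. They were chosen by name and matched by symbol to the 55487 genes of the count tables, and all 10 were found. Liver RNA was sequenced from 4 mice a genotype. Controls were numbered 154, 159, 181 and 193, and hepatocyte-specific Mc1r knockouts (Mc1r LKO) 141, 156, 157 and 182. All were male, 8 weeks old when the feeding began, and ate a cholesterol-rich Western diet for 12 weeks before a 4-hour fast and sampling. Both genotypes carried the floxed Mc1r allele in 2 copies (Mc1r fl/fl), and the Mc1r LKO mice also carried the Alb-Cre transgene. The albumin promoter drives Cre in hepatocytes, so macrophages and monocytes of the Mc1r LKO mice were not themselves targeted. Each library came from a different animal, and no litter, cage or batch is given in the labels.

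Resident macrophages of the liver, the Kupffer cells, sit in the sinusoids and arise largely before birth. In a lipid-laden liver, monocytes leave the blood along a gradient of the chemokine Ccl2, which they sense with the receptor Ccr2, and some become lipid-associated macrophages around fat-filled or dying hepatocytes. These cells carry the lipid receptor Trem2 and turn on genes for lysosomal work, matrix breakdown and adhesion.

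Of the 10 genes, 9 had enough reads for the test between genotypes and 0 of these 9 were called. The largest values of these genes lay mostly in control mouse 193 and Mc1r LKO mouse 141, and the smallest in control mouse 181 and Mc1r LKO mouse 182, so that the spread within each genotype was larger than the difference between them. Gpnmb, for example, ranged 66.9-fold over the 8 livers, from 0.255 to 17.1 CPM (counts in each 1000000 of the library, adjusted by the trimmed mean of M-values, TMM), while its fitted Mc1r LKO to control ratio was 0.798. The lowest Gpnmb value, in mouse 182, rests on 5 counts.

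Total counts ran from 10773151 to 24763375 per mouse, so that 3 counts were worth 0.121 to 0.278 CPM. Mc1r, the targeted gene, had 0 counts in every mouse, controls included, so the genotype could not be checked from it. Hepatocyte genes (Alb, Ttr, Apoa1 and 5 others) summed to between 73267 and 108827 CPM, as the tissue label states. Mice 181 and 182 stood apart from the other mice, over all genes as well as for those described here. On the first principal component of all genes (37.6% of the variance) they were at 27.8 and 59.3, and the others between -28.2 and -7.03. The fold changes, the spread, the levels relative to macrophage genes and the likeness between genes are therefore also given without both, a choice made after the values were seen.

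The promoters of the 3 genes in which the AP-1 motif was found are printed first. The AP-1 motif, the site of Fos and Jun factors that macrophages activate on stimulation, was searched as TGACTCA on both strands (TGAGTCA when read on the other strand), in windows from 250 bases before to 20 bases after each RefSeq start (GRCm38.p6). It occurred in 4.77% of the 32851 windows of that length, and in 3 of the 13 windows of the 10 genes. The 3 windows, all on the plus strand, belong to Gpnmb, Itgax and Mmp12, and capitals mark the motif.
Gpnmb, chr6:49036268-49036537: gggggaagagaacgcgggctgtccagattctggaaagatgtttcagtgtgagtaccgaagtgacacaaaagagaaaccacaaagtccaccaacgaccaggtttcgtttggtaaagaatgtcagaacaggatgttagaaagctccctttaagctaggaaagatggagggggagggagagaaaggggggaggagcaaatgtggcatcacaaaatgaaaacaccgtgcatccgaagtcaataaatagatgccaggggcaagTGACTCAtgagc
Itgax, chr7:128129300-128129569: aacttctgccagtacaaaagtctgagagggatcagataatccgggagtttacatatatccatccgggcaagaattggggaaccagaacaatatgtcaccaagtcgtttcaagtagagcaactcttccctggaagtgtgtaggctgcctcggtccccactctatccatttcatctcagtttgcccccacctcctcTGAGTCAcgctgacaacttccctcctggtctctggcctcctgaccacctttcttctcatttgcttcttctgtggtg
Mmp12, chr9:7347124-7347393: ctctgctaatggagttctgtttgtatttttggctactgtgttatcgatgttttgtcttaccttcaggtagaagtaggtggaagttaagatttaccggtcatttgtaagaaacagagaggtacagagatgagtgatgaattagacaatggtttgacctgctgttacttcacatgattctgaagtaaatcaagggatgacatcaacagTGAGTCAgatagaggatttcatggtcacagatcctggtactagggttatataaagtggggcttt

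The motif began 56 bases before the start of Itgax and 44 bases before the second of 2 listed starts of Mmp12, and at base 9 after the start of Gpnmb. The first listed start of Mmp12 held no copy. GAGGAAGT, a motif of the macrophage factor PU.1, was searched the same way on both strands and occurred in 2.72% of all windows and in windows of Spp1, Mmp12 and Ly6c2. CACGTG, the E-box read by Mitf and Tfeb, occurred in 6.57% of all windows and in 0 of the 13, and CATGTG, a core that Mitf also reads, in 13.1% of all windows and in windows of Cd9 and Mmp12. These are matches of letters, and no binding was measured.

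Trem2 (ENSMUSG00000023992, GRCm38 chr17:48346401-48354147, plus strand) encodes a receptor for lipids and lipoproteins that signals through Tyrobp. Its level was 2.55, 2.79, 1.72 and 6.03 CPM in control mice 154, 159, 181 and 193, and 5.53, 4.03, 3.84 and 0.358 CPM in Mc1r LKO mice 141, 156, 157 and 182. The 2 extremes, 193 and 182, were of different genotypes, and the genotypes overlapped between 1.72 and 5.53 CPM. The mean was 3.27 ± 1.9 CPM in control and 3.44 ± 2.19 CPM in Mc1r LKO mice (SD, n = 4 each), and the log2 fold change was 0.04 (SE 0.62, 95% interval -1.33 to 1.42, edgeR quasi-likelihood adjusted p = 0.995). In a whole-liver sample such as these, fewer macrophages and less RNA per macrophage cannot be told apart, for Trem2 or for any gene below.

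Gpnmb (ENSMUSG00000029816, chr6:49036546-49070929, plus strand) encodes a transmembrane glycoprotein of lysosomes and the cell surface that rises in macrophages with lysosomal load. Its level was 4.09, 4.37, 0.625 and 17.1 CPM in control mice 154, 159, 181 and 193, and 6.08, 7.67, 7.27 and 0.255 CPM in Mc1r LKO mice 141, 156, 157 and 182. Mouse 193 stood alone at the top, and mice 181 and 182 were both under 1 CPM. The means were 6.54 ± 7.23 and 5.32 ± 3.44 CPM (SD, n = 4 each), with a log2 fold change of -0.33 (SE 0.89, 95% interval -2.30 to 1.65, edgeR adjusted p = 0.966). Without control mouse 193 it was 0.84 (edgeR unadjusted p = 0.359). Without Mc1r LKO mouse 182 it was 0.08, so the sign of this fold change turned when either mouse was left out.

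Spp1 (ENSMUSG00000029304, chr5:104435118-104441050, plus strand) encodes osteopontin, a secreted ligand of integrins and Cd44 that bile duct cells make as well as macrophages. Its level was 104, 84.1, 49.1 and 142 CPM in the control mice and 239, 110, 127 and 16.8 CPM in the Mc1r LKO mice, in the same order of mice as above. Mouse 141 was highest and mouse 182 lowest, both Mc1r LKO. The means were 94.8 ± 38.7 and 123 ± 91 CPM, and the log2 fold change was 0.37 (SE 0.59, 95% interval -0.94 to 1.68, edgeR adjusted p = 0.935). Leaving out mouse 141 gave -0.16, and leaving out mouse 182 gave 0.75 (edgeR unadjusted p = 0.0508). Mouse 141 also had the highest level of the bile duct genes Krt19 (3.66 CPM) and Epcam (6.36 CPM), while the whole list of 10 bile duct genes, of which Tff2 was at 0 in 7 mice, summed to 29.1 to 35.2 CPM in control and 24.5 to 37.4 CPM in Mc1r LKO mice. Their part in the Spp1 level was not tested. Of the 1648 exon bases of Spp1, 309 overlap the gene model Gm42793 on the same strand.

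The tetraspanins Cd9 and Cd63 organise membrane proteins into microdomains, Cd9 at the cell surface of many cell types and Cd63 mainly in late endosomes and lysosomes. Cd9 (ENSMUSG00000030342, chr6:125460266-125494791, minus strand) was at 30.6, 31.6, 18.1 and 24.0 CPM in the control and 34.4, 39.1, 35.8 and 18.5 CPM in the Mc1r LKO mice. Mice 181 and 182 were again lowest, here with a highest-to-lowest factor of 2.16, the smallest of the 9 genes, and mice 141, 156 and 157 were above all controls. The means were 26.1 ± 6.31 and 31.9 ± 9.17 CPM, with a log2 fold change of 0.30 (SE 0.24, 95% interval -0.23 to 0.83, edgeR adjusted p = 0.871). Cd63 (ENSMUSG00000025351, chr10:128900989-128912822, plus strand) was at 30.4, 20.6, 5.26 and 28.0 CPM in the control and 36.2, 29.4, 30.1 and 4.65 CPM in the Mc1r LKO mice. Here 181 and 182 lay far below the other 6 mice, with nothing in between. The log2 fold change of Cd63 was 0.24 (SE 0.59, 95% interval -1.06 to 1.55, edgeR adjusted p = 0.963).

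Lgals3 (ENSMUSG00000050335, chr14:47367751-47386160, plus strand) encodes galectin-3, a carbohydrate-binding protein of activated macrophages. It was at 11.3, 17.4, 5.68 and 21.4 CPM in the control and 17.9, 16.5, 17.7 and 4.14 CPM in the Mc1r LKO mice. The means, 13.9 ± 6.88 and 14.1 ± 6.64 CPM, were close together, and 3 of the 4 Mc1r LKO mice lay within a narrow band above the median control. The log2 fold change was 0.01 (SE 0.47, 95% interval -1.02 to 1.05, edgeR adjusted p = 0.996).

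Itgax (ENSMUSG00000030789, chr7:128129547-128150657, plus strand) encodes the integrin alpha X chain, CD11c, of dendritic cells and lipid-associated macrophages. It was at 2.34, 2.79, 0.938 and 6.65 CPM in the control and 3.94, 2.08, 3.43 and 0.255 CPM in the Mc1r LKO mice. Control mouse 193 was highest, and Mc1r LKO mouse 182 lowest with few reads. The log2 fold change was -0.41 (SE 0.69, 95% interval -1.95 to 1.13, edgeR adjusted p = 0.939), and 0.29 without control mouse 193.

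Mmp12 (ENSMUSG00000049723, chr9:7344381-7369499, plus strand) encodes the macrophage metalloelastase, which digests elastin. It was at 10.1, 4.00, 1.67 and 18.2 CPM in the control and 14.1, 8.19, 9.69 and 0.460 CPM in the Mc1r LKO mice. The order of the mice was that of Gpnmb at both ends, with 193 highest and 182 lowest. The log2 fold change was -0.10 (SE 0.80, 95% interval -1.88 to 1.69, edgeR adjusted p = 0.99), and 0.61 without control mouse 193.

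Ccr2 (ENSMUSG00000049103, chr9:124101950-124113557, plus strand), the receptor that brings monocytes to Ccl2, was at 2.71, 4.37, 1.25 and 6.16 CPM in the control and 5.53, 2.92, 5.17 and 1.02 CPM in the Mc1r LKO mice. The genotype means, 3.62 ± 2.12 and 3.66 ± 2.1 CPM, differed by much less than their SDs. The log2 fold change was 0.01 (SE 0.55, 95% interval -1.20 to 1.22, edgeR adjusted p = 0.996).

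Ly6c2 (ENSMUSG00000022584, chr15:75108158-75111970, minus strand) encodes the surface antigen that marks inflammatory monocytes. It was the member with too few reads for the fit, with 9, 4, 0 and 7 counts in control mice 154, 159, 181 and 193 and 8, 12, 20 and 2 counts in Mc1r LKO mice 141, 156, 157 and 182. Mouse 181 had no read and mouse 182 fewer than the 3 counts taken as the detection floor. In CPM of the plain total the means were 0.292 ± 0.21 in control and 0.563 ± 0.332 in Mc1r LKO mice (SD, n = 4 each), a difference within the spread (two-sided exact permutation p = 0.2). Its neighbour Ly6c1, a gene of endothelium and monocytes, had 0 to 7 counts. The main transcripts of both are identical at 802 of 822 aligned bases (97.6%), so read pairs may be split between them or dropped, and both counts are uncertain.

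**Figure D1:**
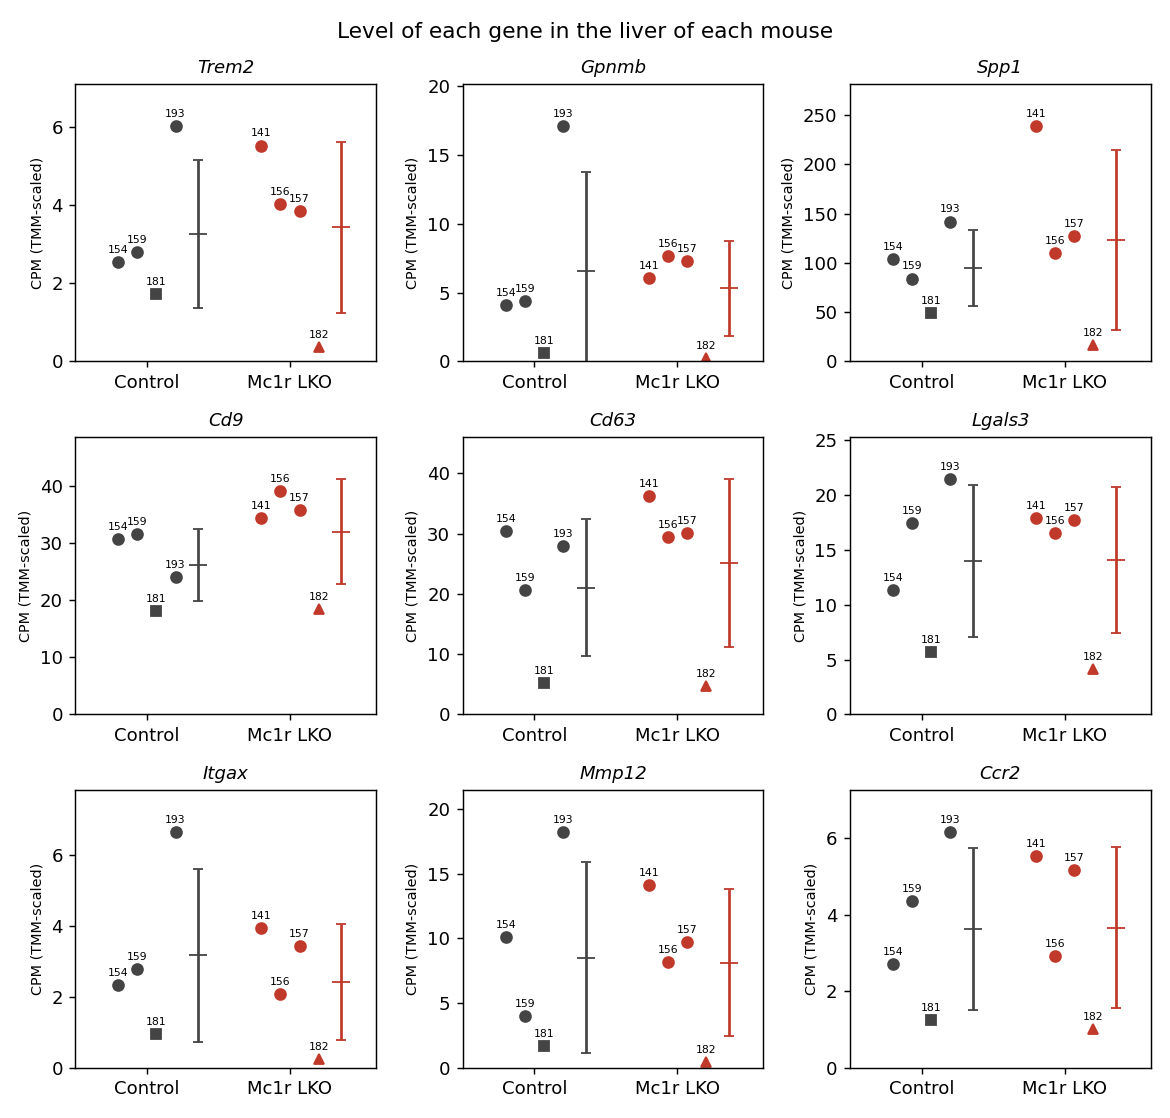
Level of 9 of the genes in each liver, in CPM scaled by TMM on a linear axis that starts at 0, with control mice in grey and Mc1r LKO mice in red; numbers are mouse numbers, and the bar beside each group is the mean with its SD (n = 4; the lower end for control Gpnmb lies below 0 and is not drawn). Control mouse 181 (square) and Mc1r LKO mouse 182 (triangle) hold the 2 lowest values in all 9 panels, and the genotypes overlap in each.

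Across these 9 genes the edgeR quasi-likelihood test called 0 at an adjusted p under 0.05, against 0% of all 13400 genes tested (smallest adjusted p of any gene 0.118). At an unadjusted p under 0.05 with a log2 fold change of at least 0.25 in size it called 0 of the 9, against 5.31% of all genes. DESeq2 called 17 genes and limma-voom 0 at an adjusted p under 0.05, with 0 of the 9 among them, but DESeq2 gave an adjusted p to 5 of the 9 and none to Trem2, Gpnmb, Itgax and Ccr2. The ranges of the control and the Mc1r LKO mice overlapped for each of the 9 genes, while they did not for 4.16% of all genes. The two-sided exact permutation p of the CPM values was between 0.314 and 1, where the smallest that 4 against 4 mice can give is 0.0286. The 95% intervals were wide. For Gpnmb the Mc1r LKO to control ratio could lie between 0.203 and 3.13, and for Cd9, the narrowest, the log2 interval ran from -0.23 to 0.83.

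**Figure D2:**
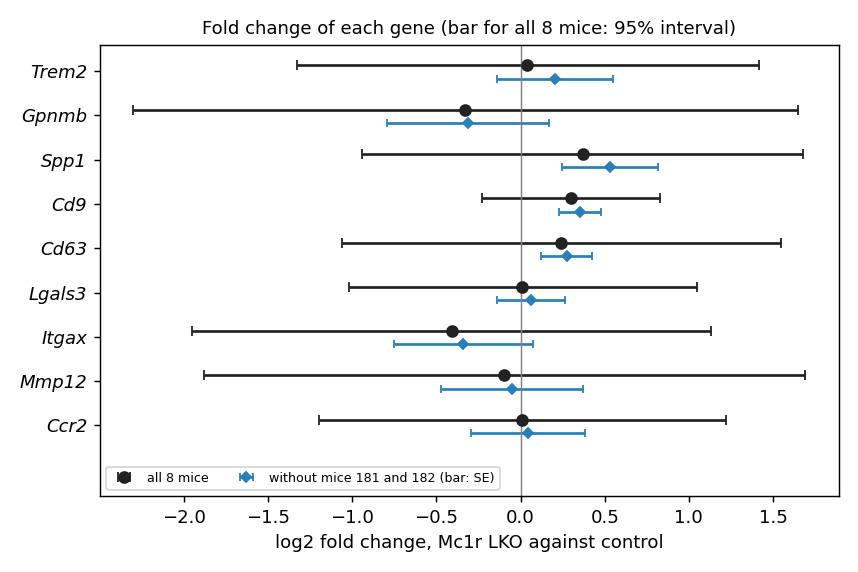
Log2 fold change of each gene, Mc1r LKO against control, from edgeR. Black circles with 95% intervals are all 8 mice and all 9 intervals include 0; blue diamonds with SE bars are the fit without mice 181 and 182, with Cd9 at 0.35 and Gpnmb at -0.31.

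Without mice 181 and 182, Cd9 was called at the unadjusted threshold, with a log2 fold change of 0.35 (SE 0.12, edgeR unadjusted p = 0.018, adjusted p = 0.662), against 6.46% of all genes called in that fit. The 3 remaining Mc1r LKO mice were all above the 3 remaining controls, and 12.9% of all genes had no overlap in either direction (two-sided exact permutation p = 0.1, the smallest 3 against 3 mice can give). Cd9 was also called without Mc1r LKO mouse 182 alone (log2 fold change 0.49, edgeR unadjusted p = 0.0158), against 6.81% of all genes. The other 8 genes were called in neither fit, with Spp1 at 0.53 (edgeR unadjusted p = 0.0927) and Cd63 at 0.27 (edgeR unadjusted p = 0.102) without both mice.

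The members varied together between mice. Mice 181 and 182 had the 2 lowest values for 9 of the 9 genes, which held for 11.7% of all 13400 genes. Mouse 182 was the lowest for 8 of the 9, with Cd9 as the exception, and for 21.8% of all genes. Control mouse 193 was highest for 6 genes, Mc1r LKO mouse 141 for Spp1 and Cd63, and Mc1r LKO mouse 156 for Cd9. Over all genes these 3 mice were highest for 8.57%, 12.3% and 10.8%. Against the median of the other 3 mice of its genotype, mouse 182 was lower by 28.5-fold for Gpnmb, 21.1-fold for Mmp12, 13.4-fold for Itgax and 11.3-fold for Trem2. These ratios rest on 5, 9, 5 and 7 counts in mouse 182, in the same order of genes, so their size is uncertain. For Spp1, Cd63, Ccr2 and Lgals3 mouse 182 was lower by 4.27-fold to 7.57-fold, and for Cd9 by 1.93-fold. Mouse 181 was lower than the median of the other 3 controls by 6.99-fold for Gpnmb, 6.06-fold for Mmp12 and 5.32-fold for Cd63, and by 1.62-fold to 3.49-fold for the rest. The order of the genes differed between these 2 mice, since Trem2 was 1.62-fold lower and Itgax 2.97-fold lower in mouse 181.

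The spread within a genotype was wide. The SD of log2 CPM within genotypes was 2.01 for Gpnmb, 1.83 for Mmp12, 1.38 for Itgax and 1.28 for both Trem2 and Cd63, against a median of 0.23 over all genes. For 8 of the 9 genes it was larger than in at least 96.9% of all genes tested, and for Cd9, at 0.44, larger than in 77.1%. This ranking was not matched for level. Trem2, Gpnmb, Itgax, Mmp12 and Ccr2 had mean log2 CPM of only 1.15 to 2.47, where counting error adds to the SD. The factor between the highest and the lowest mouse was 39.6 for Mmp12, 26 for Itgax, 16.9 for Trem2, 14.2 for Spp1 and 2.16 for Cd9. Most of this spread rested on mice 181 and 182. Without both, the factor was 4.56 for Mmp12, 4.17 for Gpnmb, 3.2 for Itgax, 2.36 for Trem2, 2.84 for Spp1 and 1.63 for Cd9. The SD without both was 0.82 for Gpnmb and Mmp12 and 0.17 for Cd9, against a median of 0.20 over all genes, and it was larger than in 97.1% of all genes for Gpnmb, in 59.4% for Cd63 and in 40.6% for Cd9.

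Per kilobase of exon, Spp1 had the highest level of the set, with a median over the 8 mice of 65 CPM per kb. Cd9 followed at 15.2, Lgals3 at 9.12 and Cd63 at 7.8 CPM per kb. Mmp12 (1.24), Gpnmb (0.802), Trem2 (0.67), Ccr2 (0.539) and Itgax (0.534) came next, and Ly6c2 was lowest at 0.155 CPM per kb. Spp1, Cd9, Lgals3 and Cd63 are also made by other liver cells, and the tables do not separate the sources.

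Marker lists of liver cells were read in the same mice, as the median over a list of each gene's log2 difference from its mean over the 8 mice. The 8 lipid-associated genes were at -1.09 in mouse 181 and -2.48 in mouse 182, and between 0.16 and 0.96 in the other 6 mice. The 12 pan-macrophage genes (Csf1r, Adgre1, Cd68, C1qa and 8 others) were at -0.51 and -1.01 in mice 181 and 182, and the 7 pan-leukocyte genes at -0.67 and -1.16. The 12 genes of Kupffer cells (Clec4f, Vsig4, Timd4, Marco and 8 others) were at -0.24 and -0.56, the 10 genes of stellate cells at -0.42 and -0.39, and the 8 genes of hepatocytes at 0.11 and 0.43. All of the 12 pan-macrophage genes were detected, with a summed level of 378 to 1037 CPM in control and 316 to 582 CPM in Mc1r LKO mice. Mice 181 and 182 were the 2 lowest for 9 of 12 pan-macrophage genes, 7 of 7 pan-leukocyte genes, 6 of 10 stellate genes and 2 of 12 Kupffer cell genes. The part of these other cells in the levels of the members was not tested.

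At the upper end the pan-macrophage and Kupffer cell lists parted from the members. Control mouse 159 was highest for 11 of the 12 pan-macrophage genes (list median 1.07) and 11 of the 12 Kupffer cell genes (0.88), but for 0 of the 9 members (0.16 for the lipid-associated genes). Over all genes mouse 159 was highest for 18.1%. Control mouse 193, highest for 6 members, was at 0.56 for pan-macrophage and 0.20 for Kupffer cell genes. Mc1r LKO mouse 141 was at 0.92 for the lipid-associated genes and at -0.11 for pan-macrophage genes. The stellate list did not part from the members in this way. Of its 10 genes, 6 were highest in mouse 193 and 2 in mouse 141, with list medians of 0.41 and 0.28. For single genes, Csf1r, the receptor that macrophages need for survival, was at 114 CPM in mouse 159 and 46.6 CPM in mouse 141, whereas Mmp12 was at 4.00 and 14.1 CPM in the same mice. Other genes parted less, with Lgals3 at 17.4 and 17.9 CPM and the pan-macrophage gene Lyz2 at 70.7 and 66.9 CPM in these mice.

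**Figure D3:**
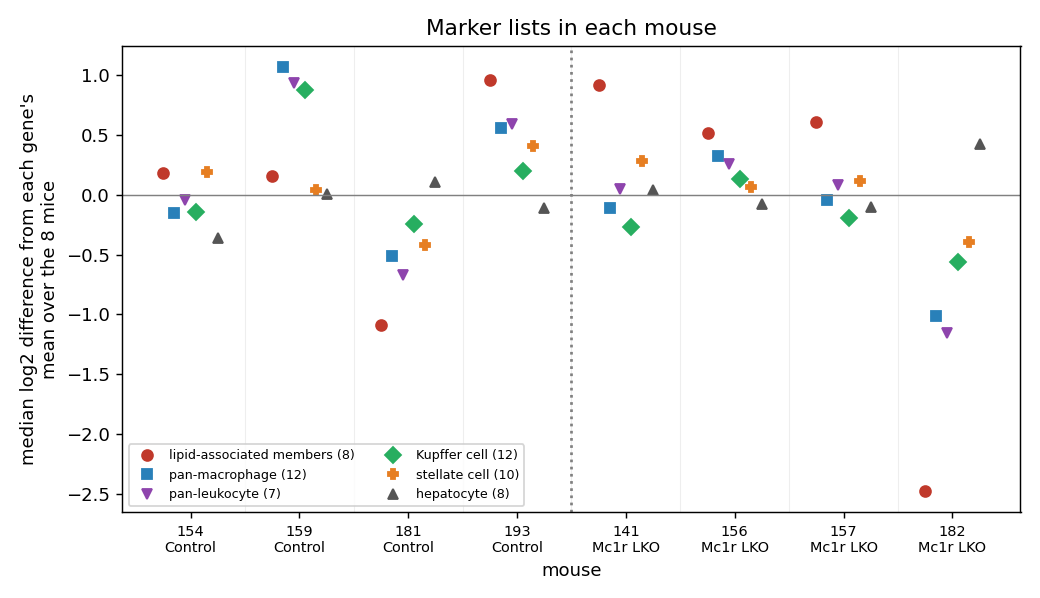
Median, over the genes of each marker list that passed the filter (number in brackets), of the log2 difference from each gene's mean over the 8 mice, for each mouse. The lipid-associated genes (red circles) are lowest in mice 181 (-1.09) and 182 (-2.48), while pan-macrophage genes (blue squares) are highest in mouse 159 (1.07), where the lipid-associated genes are at 0.16.

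To set each gene against the amount of macrophage RNA in the same liver, the mean log2 CPM of the 12 pan-macrophage genes was subtracted from its log2 CPM. For 8 of the 9 genes the two-sided exact permutation p of this difference lay between 0.286 and 0.914. For Cd9 the mean was -0.49 ± 0.58 in control and 0.20 ± 0.09 in Mc1r LKO mice (SD, n = 4 each), a difference of 0.69 (two-sided exact permutation p = 0.0571). Cd9 relative to these genes was 0.18, -1.05, -0.21 and -0.88 in the control mice and 0.25, 0.07, 0.26 and 0.23 in the Mc1r LKO mice. The Mc1r LKO mice lay in a narrow band, mouse 182 included, which only control mouse 154 reached. Without mice 181 and 182 the Cd9 difference was 0.78 (two-sided exact permutation p = 0.2), and those of the other 8 genes were 0.22 to 0.90 (exact permutation p of 0.2 to 0.7). None of the 9 genes was free of overlap on this scale, and 0.754% of all genes were.

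Against the 7 pan-leukocyte genes the Cd9 difference was 0.58, and against Csf1r alone 0.97, both with no overlap (two-sided exact permutation p = 0.0286 each, the smallest possible, not adjusted for the 9 genes and 3 references compared). The share of all genes with no overlap was 0.53% against pan-leukocyte genes and 5.62% against Csf1r. Csf1r itself was at 70.8 ± 33.8 CPM in control and 41.4 ± 11.4 CPM in Mc1r LKO mice, and a lower reference raises every such difference. Cd9 without a reference did not pass the test, as given above.

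**Figure D4:**
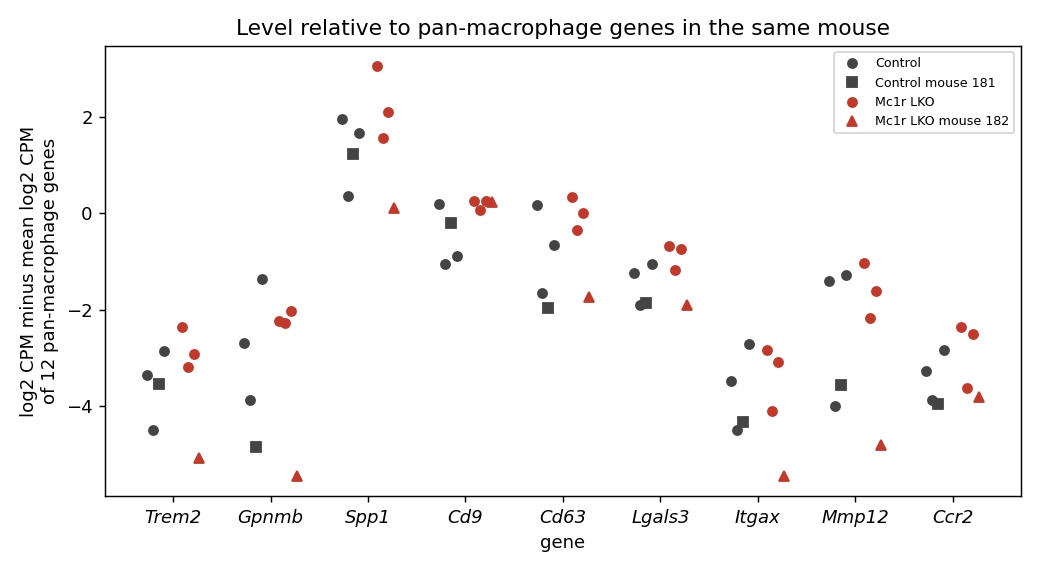
Log2 CPM of each gene minus the mean log2 CPM of 12 pan-macrophage genes in the same mouse, with control mice in grey and Mc1r LKO mice in red. Cd9 lies between 0.07 and 0.26 in the 4 Mc1r LKO mice and between -1.05 and 0.18 in the controls, while the other genes overlap widely.

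Other genes of the same programme were read from lists. Of 32 further genes of lipid-associated macrophages (lysosomal cathepsins, lipid carriers and transporters), 30 passed the filter and 0 were called at either threshold. Their median log2 fold change was -0.00, beside -0.0109 over all genes and 0.03 over the 8 lipid-associated members. The median of the members ran from -0.21 without control mouse 181 to 0.49 without control mouse 193, and that of the 30 genes from -0.08 without control mouse 181 to 0.11 without Mc1r LKO mouse 182. The largest differences were those of Ctss, a lysosomal protease (-0.61), and Tyrobp, the adaptor of Trem2 (-0.58, 21.2 ± 12.7 CPM in control and 14.1 ± 5.42 CPM in Mc1r LKO mice, edgeR adjusted p = 0.859). Mice 181 and 182 were the 2 lowest for 17 of these 30 genes (56.7%). Among them Capg, which caps actin filaments, was at 1.67 and 1.12 CPM in mice 181 and 182 and 4.89 to 9.68 CPM in the others, and Anxa5, which binds phosphatidylserine, at 128 and 66.1 CPM against 233 to 421 CPM. These last examples were chosen after their values were seen.

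Of 11 transcription factors linked to this programme, all passed the filter, and 2 were higher in Mc1r LKO mice at the unadjusted threshold. One of them, Cebpb, a factor of myeloid cells and hepatocytes, was at 84.9 ± 21.8 CPM in control and 130 ± 31.9 CPM in Mc1r LKO mice (log2 fold change 0.61, edgeR unadjusted p = 0.0189, adjusted p = 0.734). The median of the 11 was 0.00, and 354 of all 13400 genes were higher at the unadjusted threshold.

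Ligands and partners of the members had mostly negative log2 fold changes, none past an adjusted p under 0.05. Values were positive for 1 of 7 genes of the first list and 4 of 18 of the second, beside 6412 of all 13400 genes. Of 9 genes that draw or hold monocytes, 7 passed the filter, 0 were called, and the median log2 fold change was -0.27 (-0.17 without control mouse 159 and -0.41 without mice 181 and 182). Ccl2, the ligand of Ccr2, was at 4.25, 3.81, 5.21 and 5.22 CPM in the control and 2.56, 2.08, 4.24 and 4.85 CPM in the Mc1r LKO mice (log2 fold change -0.42, edgeR unadjusted p = 0.16, adjusted p = 0.843), and Icam1, an adhesion molecule, had a log2 fold change of -0.41. Mice 181 and 182 were not low for Ccl2. Of 18 genes for receptors, adaptors and inhibitors that act with the members, all passed the filter and 3 were lower at the unadjusted threshold. They were Itga4 (-0.91, edgeR unadjusted p = 0.0263) and Itga9 (-0.41, edgeR unadjusted p = 0.0236), integrin chains that bind osteopontin, and Plcg2 (-0.85, edgeR unadjusted p = 0.0377), a phospholipase downstream of Trem2. None of the other integrin chains of this list was called, with Itgav at -0.11, Itgb1 at -0.02, Itgb3 at 0.08, Itgb5 at -0.09 and Itgb2 at -0.39. Cd44, another receptor of osteopontin, was at -0.49 (edgeR unadjusted p = 0.204), and the median of the 18 was -0.25 (-0.51 without Mc1r LKO mouse 157 and -0.10 without control mouse 159). Over all 13400 genes, 357 were lower at the unadjusted threshold.

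Of 24 relatives of the members by sequence family, 15 passed the filter and 2 were lower at the unadjusted threshold, with a median of -0.05. One of them, Ly6a, the Sca-1 antigen, was at 10.6 ± 6.86 CPM in control and 5.03 ± 1.46 CPM in Mc1r LKO mice (log2 fold change -1.05, edgeR unadjusted p = 0.022). Of 20 other monocyte genes 15 passed the filter and 2 were lower, Ace (-1.37, edgeR unadjusted p = 0.0311), a peptidase of patrolling monocytes and endothelium, and Csf1r (-0.77, edgeR unadjusted p = 0.0375). The median was -0.23, and it ran from -0.50 without Mc1r LKO mouse 157 to 0.05 without Mc1r LKO mouse 182. Beside both lists, 357 of all 13400 genes were lower at the unadjusted threshold.

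The medians of the macrophage lists were below those of the members, a difference that was not tested. The log2 fold changes of the 12 pan-macrophage genes were all negative, with a median of -0.51, and 1 of the 12, Csf1r, passed the unadjusted threshold. Over all 13400 genes, 6412 had positive values, and at the unadjusted threshold 354 were higher and 357 lower. Genes of a list share their libraries, so their signs are not independent. Some genes stand in several lists, such as Csf1r and Lyz2 (monocyte and pan-macrophage), Cd53 (partner and pan-leukocyte) and Tyrobp (programme, partner and pan-macrophage). The list medians are therefore not separate observations. Of the 12 Kupffer cell genes 11 were negative (median -0.40), and Fcna, a ficolin of these cells, was at 28.7 ± 3.32 CPM in control and 20.5 ± 0.646 CPM in Mc1r LKO mice (-0.48, edgeR unadjusted p = 0.000572, adjusted p = 0.734). Without control mouse 159 the medians were -0.10 for pan-macrophage and -0.09 for Kupffer cell genes. Of the neutrophil list 3 of 10 genes passed the filter and Csf3r was lower (-0.77, edgeR unadjusted p = 0.0458) while S100a8 and S100a9 had positive values (list median 0.39), of the dendritic cell list 7 of 10 passed and 0 were called (Siglech 0.88 and Clec9a -0.58; Itgax marks these cells too), and of the lymphocyte list 0 of 10 passed, with a summed level of 2.15 to 6.88 CPM. Of the endothelial list 1 of 8 genes was higher, the growth factor gene Bmp2 (0.36, edgeR unadjusted p = 0.0475; list median -0.11, and 0.00 without Mc1r LKO mouse 182), of the hepatocyte list 1 of 8, the tyrosine aminotransferase gene Tat (0.88, edgeR unadjusted p = 0.0374), and of the stellate and bile duct lists 0 of 10 (Acta2 0.33 and Pdgfrb -0.24) and 0 of 5 (Epcam 1.12 and Krt19 0.36). Of the 7 pan-leukocyte genes 0 were called, with a median of -0.43 (-0.08 without control mouse 159), Cd53 at -0.61 and Rac2 at -0.59.

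Likeness to the members was measured over the 8 mice as the Pearson correlation of log2 CPM with the mean of the 9 members' standardised log2 CPM. The points share their libraries, and mice 181 and 182 lie far from the rest, so the values are descriptive. The 5 genes most alike among those that are not members were Hexa (r = 0.988, Spearman rho = 0.98), Arvcf (0.980, 0.86), Cib3 (0.979, 0.98), Lyve1 (0.978, 0.88) and Coro1a (0.977, 0.93). Hexa, a lysosomal hexosaminidase, was at 65.9 and 57.6 CPM in mice 181 and 182 and at 78.8 to 85.5 CPM in the others. Lyve1 is a hyaluronan receptor of sinusoidal endothelium and some macrophages, and Coro1a an actin regulator of leukocytes. Without the mouse farthest from the median, 182, r was 0.95 to 0.97 for the 5 genes, and without both 181 and 182 it was 0.87 for Cib3 and Coro1a, 0.81 for Hexa, 0.77 for Lyve1 and 0.59 for Arvcf. Each member was compared with the other 8 in the same way. Lgals3 was most like the rest (r = 0.972), and Cd9 least (r = 0.757). Without mice 181 and 182, r was 0.49 to 0.95 for 8 members, with Trem2 highest, and -0.41 for Cd9, so that the likeness of Cd9 to the rest rested on those mice.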

How the data were processed

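The authors trimmed the read pairs with Trim Galore (0.6.6), aligned them with STAR (2.7.6a) to GRCm38 and counted pairs per gene with featureCounts of Subread (2.0.1), on the strand of a stranded mRNA kit. They deposited raw counts for each mouse, without normalization, from single-mouse libraries. Genes were named through an annotation of the same build (55141 of 55487 matched). The edgeR (4.0.16) filter (filterByExpr, defaults) kept 13400 genes. Counts were scaled by TMM and tested by quasi-likelihood with Benjamini-Hochberg adjustment over all genes kept, for all 8 mice, 4 a genotype. Single values were compared by two-sided exact permutation tests. Log2 CPM used a prior count of 2. Alternatives were DESeq2 (1.42.0), limma-voom (3.58.1), other scalings and filters, and each mouse left out. The edgeR fit alone was tested on simulated counts, in which every gene had the same dispersion (the setting for spread between mice).

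Named genes were all members, the genes of each other list with an unadjusted p under 0.05 or otherwise some with the largest fold changes, the 5 genes most like the members, and Mc1r; some genes that this rule names are not reported here. The members and the lists were chosen with earlier results of these data known. Promoter sequences are from RefSeq (GRCm38.p6). The detection floor was 3 counts, which covers counting error only. The p-values weigh the difference between genotypes against the spread between mice of each label.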

Additional observations from a re-analysis of the deposited data

Results flagged for a closer look

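Dixon's criterion for a sample far from the others was applied to the CPM of the 10 genes in each genotype, 20 groups of 4 mice, of which chance would flag about 1 in 20. It picked out 1 value. Lgals3 in Mc1r LKO mouse 182 was at 4.14 CPM, while the other 3 Mc1r LKO mice were at 16.5 to 17.9 CPM, so that the gap took up 0.898 of the group's range. The cause was not tested.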

How the results depend on the processing

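No member with an adjusted p was called at 0.05 in the alternatives run. DESeq2 gave none to Trem2, Gpnmb, Itgax and Ccr2, and the filter of at least 10 counts in every mouse left out Trem2, Gpnmb, Itgax and Mmp12. DESeq2 called 17 genes in all and the test with no filter beyond 1 count called 1, against 0 in the main test, and each fit without 1 mouse called 0. The unadjusted count was 1140 with no filter beyond 1 count, against 711, and 606 to 931 without 1 mouse. The members called at the unadjusted threshold were 0 to 1 without 1 mouse and 1 without mice 181 and 182, in each case Cd9. Of 137 refits of a member's log2 fold change 28 turned its sign. With limma-voom Trem2 was at -0.44, Spp1 at -0.04, Lgals3 at -0.05 and Ccr2 at -0.04, and with the total count alone, which moved the median of all genes to -0.0558, Lgals3 was at -0.02 and Ccr2 at -0.03. Without 1 mouse the fold change ran from -0.27 to 0.55 for Trem2, -0.71 to 0.84 for Gpnmb, -0.16 to 0.75 for Spp1, 0.16 to 0.49 for Cd9, -0.08 to 0.60 for Cd63, -0.25 to 0.33 for Lgals3, -0.72 to 0.29 for Itgax, -0.49 to 0.61 for Mmp12 and -0.28 to 0.44 for Ccr2. Summed with Ly6c1, Ly6c2 was at 0.78 (edgeR unadjusted p = 0.104).

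Relative to pan-macrophage genes the difference ran, without 1 mouse, from -0.17 to 0.74 for Trem2, -0.35 to 1.02 for Gpnmb, -0.06 to 0.93 for Spp1, -0.45 to 0.42 for Itgax, -0.32 to 0.96 for Mmp12 and 0.51 to 0.92 for Cd9, and for Itgax it was 0.16 against Csf1r alone and 0.22 without mice 181 and 182. The difference in Ly6c2 CPM was 0.174 to 0.428 without 1 mouse. The median of the neutrophil list was 0.39, and -0.17 without Mc1r LKO mouse 157. The causes were not tested. No paired analysis was possible because the labels give no litter or cage by which mice could be paired. Depth limits Ly6c2, and counts of 5 to 9 in mouse 182 limit the fold ranges of Trem2, Gpnmb, Itgax and Mmp12. The spread between mice limits the genes other than Ly6c2.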
